A study of Dugesia japonica with 18 samples.

Results

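The comparison described here sets the whole-body transcriptome of the planarian Dugesia japonica 1 day after X-irradiation against that of unirradiated animals. It comprised the 6 libraries of day 1 and day 0, 3 of each, out of 18 in the series, and was chosen by the sampling day in the sample labels. The day 0 animals were not irradiated, per the series' design text, although the label of each of the 18 libraries carries the dose. All animals came from SSP, a clonal strain of D. japonica with 16 chromosomes, measured about 5 mm in length and had been starved for a week or more. The day 1 animals received 150 Roentgens of X-rays. The sources used here give neither the age of the animals nor how many went into a library. The labels describe the replicates as biological. If they are not from separate animals, the p-values measure only the spread between these samples. No unirradiated animals were sampled a day later, so irradiation and elapsed time cannot be told apart.

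Planarians keep a population of dividing stem cells, the neoblasts, which are the only dividing somatic cells of the adult and the source of all its differentiated cell types. Ionizing radiation damages DNA and removes the neoblasts within days, while differentiated cells survive longer and their descendants in the process of maturing disappear in sequence. RNA of the whole body was read from the 3' ends of messenger RNA, with all cell types mixed. In such bulk samples fewer cells of a type and less RNA per cell cannot be told apart. The files do not pair the gene model IDs with gene names, so no ID could be assigned a function, no pathway list or cell type marker could be examined and the labelled tissue could not be checked against its markers.

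The 3 day 0 libraries held 11695734, 12605652 and 7760430 counts in gene models, and the 3 day 1 libraries held 9143784, 8995350 and 9774946. The number of gene models with at least 1 count was 21812 ± 469 in day 0 libraries and 21574 ± 55.2 in day 1 libraries (SD, n = 3 each), with an exact two-sided permutation p of 0.4, where 3 against 3 libraries allow no p below 0.1. The 10 most abundant gene models took 20.2 ± 0.639% of the counts in day 0 and 18.2 ± 0.324% in day 1 libraries (SD, n = 3 each), and the groups did not overlap (exact two-sided permutation p = 0.1, adjusted p = 0.4 over 4 library measures). The first principal component of the 6 libraries held 55.1% of the variance and separated the groups, with day 0 between -35.9 and -30 and day 1 between 32.6 and 34.7. Among 3585 gene models averaging at least 30 CPM (counts relative to the library total, scaled between libraries), the median SD of log2 CPM between replicates was 0.1 at day 0 and 0.0803 at day 1.

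One day after irradiation, falls were both more frequent and deeper than rises. Of 25566 gene models, 17129 passed the filter on low counts, and the remaining 8437 held at most 0.165% of the counts of any of the 6 libraries. Of the 17129, 3422 (20.0%) differed between the days (edgeR quasi-likelihood test, Benjamini-Hochberg adjusted p below 0.05). These were 2193 gene models that fell (12.8%) and 1229 that rose (7.17%). The split was 64.1% falls with the scaling used here and 51% with upper-quartile scaling, so the excess in number depended on the scaling. At least 2-fold lower were 689 gene models (4.02%), and at least 2-fold higher were 54 (0.315%), and these numbers stayed within 1.5 times under each alternative that was run. At an unadjusted p below 0.05 there were 3024 lower and 2332 higher gene models.

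Most rises were small. Of the 1229, 945 (76.9%) were below 1.5-fold, 230 were 1.5-fold to 2-fold, 52 were 2-fold to 4-fold and 2 were 4-fold or more. Their median log2 change was 0.42, with an interquartile range of 0.34 to 0.57. Of the 2193 falls, 578 (26.4%) were below 1.5-fold and 926 were 1.5-fold to 2-fold. A further 488 lay between 2-fold and 4-fold, 115 between 4-fold and 8-fold, 74 between 8-fold and 16-fold and 12 at 16-fold or more. The median log2 change of the falls was -0.77, with an interquartile range of -1.13 to -0.58, and 5% of them were below -2.8. The rises had a median level of 56 CPM over 18 libraries and the falls 11.2 CPM, and smaller changes pass the test at higher levels. The 2 medians of change are thus not from like levels. Within 10 to 30 CPM, the median log2 change was -0.64 for the falls and 0.5 for the rises. Over all 17129 gene models the median log2 change was 0, and the smallest change that passed the test was 0.21 on the log2 scale.

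**Figure D1:**
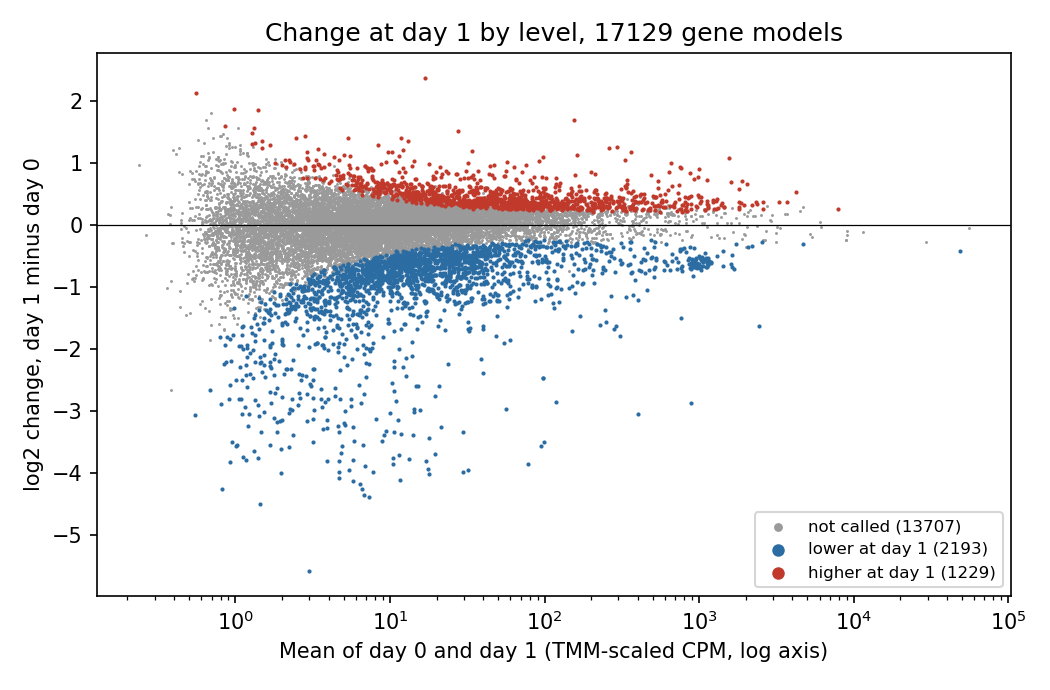
Each point is 1 of 17129 gene models, with its mean level at days 0 and 1 in CPM on a log axis and its log2 change from day 0 to day 1; blue points are the 2193 that fell, red points the 1229 that rose and grey points those not called. Falls reach below -4 on the log2 scale while nearly all rises stay under 1.5, and a dense blue cluster stands near 1000 CPM at about the same fall.

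The deepest falls left low but measurable transcript. The 86 gene models that fell 8-fold or more had a median of 9.04 CPM at day 0, within a range of 0.99 to 713 CPM, and a median of 0.674 CPM at day 1. Their counts summed over the 3 day 1 libraries ranged from 2 to 2376, with a median of 19, so many of these fold changes rest on few reads. No gene model went from at least 10 counts in each day 0 library to 0 in all 3 day 1 libraries, and none did the reverse. In the whole table, 954 gene models had counts at day 0 only, with at most 56 in all 3 libraries together, and 715 had counts at day 1 only, with at most 10.

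Individual gene models are given by ID for the 2 that rose most and the 2 that fell most, among those that passed the test, averaged at least 20 CPM in the higher group and did not overlap between the 3 libraries of each day. These conditions were met by 920 rises and 993 falls. None of the 4 IDs shares its first number with another ID, which can mark related models that divide reads.

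DjGI016614-001 rose most. Its level was 5.3, 4.34 and 6.89 CPM in the day 0 libraries and 26.4, 32.6 and 25 CPM in the day 1 libraries. Every day 1 library was thus more than 3 times above every day 0 library. The fitted change was 5.21-fold, or 2.38 ± 0.16 on the log2 scale (SE; edgeR adjusted p = 4.03e-12). At day 0.5 it stood at 28.9 ± 1.24 CPM (SD, n = 3), and between day 0.5 and day 1 it was not called (log2 change -0.05 ± 0.13, SE; edgeR adjusted p = 0.951).

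DjGI013388-001, a more abundant transcript, rose next. The day 0 libraries held 55.1, 77.5 and 88.4 CPM of it and the day 1 libraries 203, 255 and 255 CPM. The groups were far apart, although day 0 replicate 1 was low among its group. The fitted change was 3.24-fold, or 1.7 ± 0.17 on the log2 scale (SE; edgeR adjusted p = 1.09e-08). Its level at day 0.5 was 236 ± 58.6 CPM (SD, n = 3), and it too was not called between day 0.5 and day 1 (log2 change 0 ± 0.16, SE; edgeR adjusted p = 0.995). The next 8 rises under the same conditions had log2 changes between 1.09 and 1.51.

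DjGI005364-001 fell most. It was at 23.7, 22.1 and 20 CPM in the day 0 libraries and at 1.55, 1.23 and 1.01 CPM in the day 1 libraries. The day 1 values rest on 14, 11 and 10 counts, against 269, 285 and 145 at day 0. The fitted change was a 17.3-fold fall, or -4.11 ± 0.3 on the log2 scale (SE; edgeR adjusted p = 4.36e-11). At day 0.5 it had reached 5.55 ± 2.51 CPM (SD, n = 3), and it fell further from there to day 1, by -2.13 ± 0.35 on the log2 scale (SE; edgeR adjusted p = 0.000463).

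DjGI012618-001 fell almost as far. Its day 0 libraries were at 34.4, 31.4 and 34.3 CPM and its day 1 libraries at 2.76, 1.56 and 1.82 CPM, from 25, 14 and 18 counts. The fitted change was a 16.2-fold fall, or -4.02 ± 0.22 on the log2 scale (SE; edgeR adjusted p = 1.69e-13). The 2 deepest falls under the conditions above differ by less than their standard errors, so their order is not established. Another 8 falls under the same conditions lay between -3.99 and -3.7, which places these gene models at the edge of a dense group of deep falls.

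**Figure D2:**
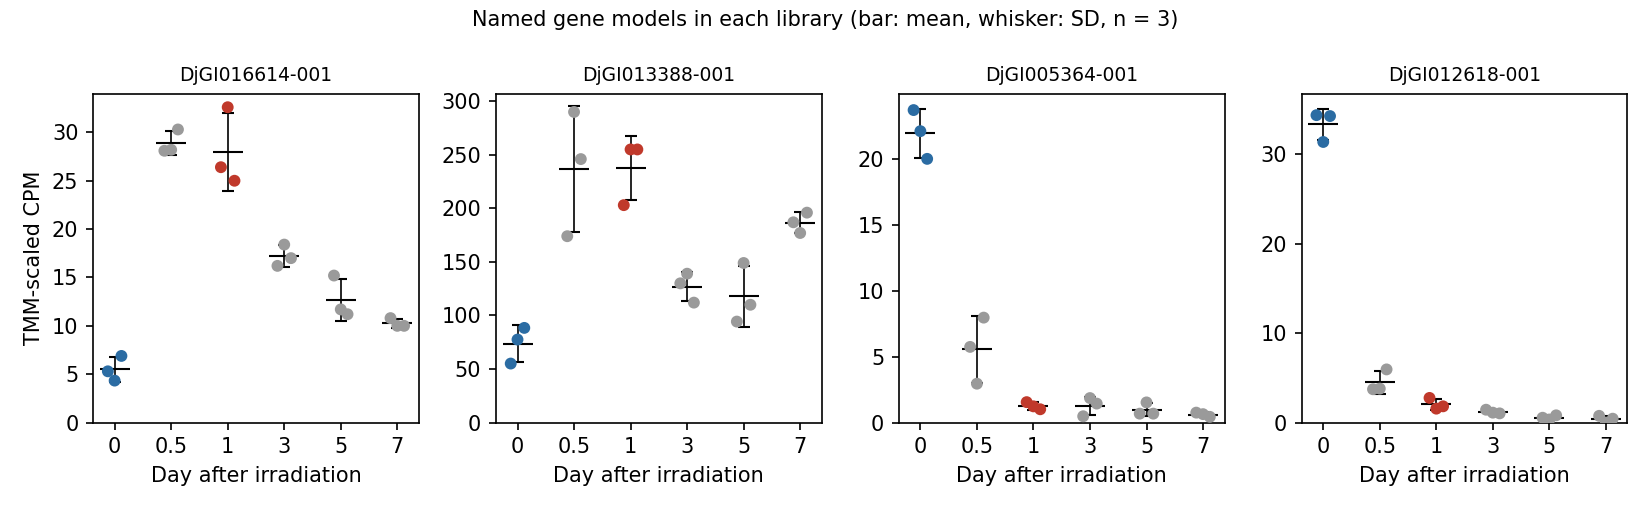
The level in TMM-scaled CPM of the 4 named gene models in each of the 18 libraries, by day after irradiation, with blue points for day 0, red for day 1 and grey for other days; bars are means and whiskers SDs (n = 3). In all 4, the day 1 libraries lie apart from the day 0 libraries and the day 0.5 libraries have already left the day 0 level.

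The numbers of falls and rises differed with the level of the transcript, and above 30 CPM their balance depended on how level was defined. With the level taken as the mean over all 18 libraries, which a fall itself lowers and a rise itself raises, falls were the more frequent at low levels. Below 1 CPM, 84 of 764 gene models fell and 2 rose. A gene model this low on average passed the filter only through higher levels in some libraries. Where those were the day 0 libraries it appears as a fall, so this split is partly set by the filter. From 3 to 10 CPM, 667 of 5246 fell (12.7%) and 115 rose (2.19%), and from 10 to 30 CPM, 690 of 4368 fell (15.8%) and 277 rose (6.34%). From 30 to 100 CPM, 282 of 2321 fell (12.1%) and 428 rose (18.4%), and from 100 to 300 CPM, 96 of 761 fell (12.6%) and 215 rose (28.3%). At 300 CPM or more, 111 of 503 fell (22.1%) and 172 rose (34.2%).

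Small changes pass the test more easily in abundant transcripts, since the median standard error fell from 0.57 on the log2 scale below 1 CPM to 0.1 at 300 CPM or more. Called rises had a median log2 change of 0.73 at 3 to 10 CPM and 0.37 at 300 CPM or more, and called falls had -0.85 and -0.59. The median over all gene models of a class, called or not, was -0.05 at 3 to 10 CPM, 0.02 at 10 to 30 CPM and 0.16 at 300 CPM or more. Falls outnumbered rises below 30 CPM (1704 against 414), and rises outnumbered falls at 30 to 300 CPM (643 against 378), under each of 4 other scalings and without any single day 0 or day 1 library. At 300 CPM or more there were 108 calls in each direction without day 1 replicate 2 and 112 rises against 111 falls without day 0 replicate 2. With the level taken from the 3 day 0 libraries instead, 1462 fell and 496 rose below 30 CPM, 590 fell and 594 rose at 30 to 300 CPM, and 141 fell and 139 rose at 300 CPM or more. The excess of falls below 30 CPM was thus present under both definitions, and the excess of rises above 30 CPM was not.

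**Figure D3:**
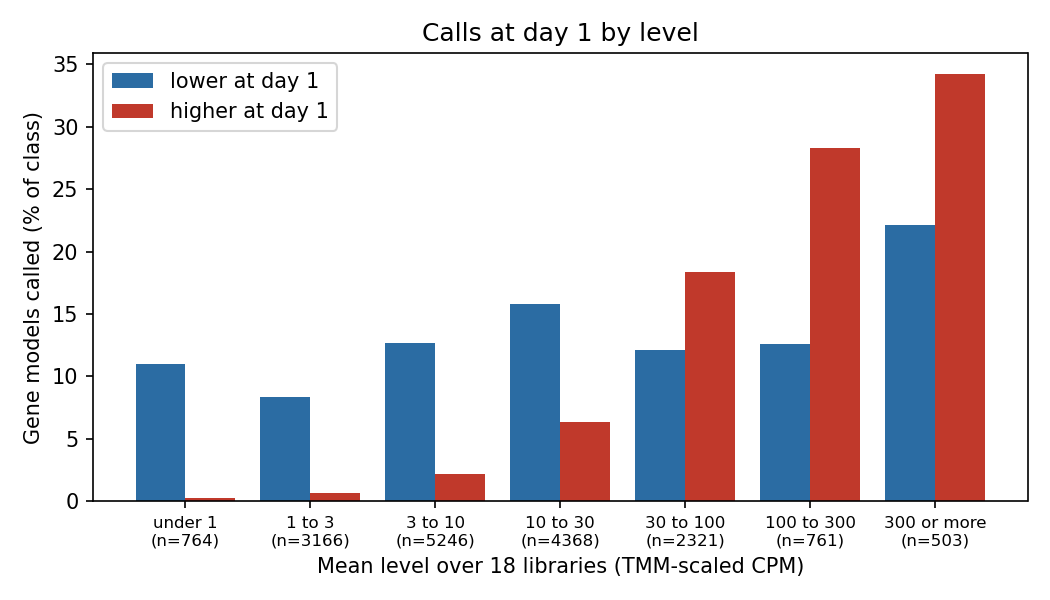
Bars give the percent of gene models in each level class (mean over 18 libraries, TMM-scaled CPM) that fell (blue) or rose (red) at day 1 by the edgeR test. Blue bars are taller in the 4 classes below 30 CPM and red bars in the 3 classes above, where 34.2% rose and 22.1% fell in the highest; with levels taken from day 0 alone, falls and rises above 30 CPM were about equal in number (590 and 594 at 30 to 300 CPM).

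Most of the transcripts that fell and were abundant by the mean over 18 libraries had changes of similar size. Of the 111 falls at 300 CPM or more, 88 (79.3%) had a log2 change between -0.8 and -0.4, and 4 had fallen at least 2-fold. Their median log2 change was -0.59, with an interquartile range of -0.68 to -0.51, against a median standard error of 0.1. The 172 abundant rises had a median of 0.37 and an interquartile range of 0.29 to 0.46. The narrow range of the rises is partly set by the call, since the 220 abundant gene models not called had an upper quartile of 0.19. That of the falls is partly set by the class, since a deep fall lowers the mean over 18 libraries. With the level taken from day 0 alone, 141 gene models at 300 CPM or more fell. Among the 500 most abundant gene models at day 0, log2 changes reached down to -3.06. At a mean of 700 to 1000 CPM over 18 libraries, 42 of 92 gene models fell. These 42 went from a median of 1240 CPM at day 0 (interquartile range 1160 to 1360) to 829 CPM at day 1 (763 to 887), and their log2 changes lay between -0.73 and -0.36. The sets were chosen by this contrast, the class of 700 to 1000 CPM was chosen after its values were seen, and its bounds are means over 18 libraries that the falls lower, so these figures are a description and were not tested.

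The 111 held 17.7 ± 0.48% of the counts over the day 0 libraries (SD, n = 3) and 13, 12.4 and 12.3% in those of day 1, with no overlap. Relative to the day 0 mean on the log2 scale, their median was -0.54, -0.59 and -0.64 in the day 1 libraries. The same transcripts also moved together between replicates of day 0. Their median was 0.09 in replicate 1, -0.14 in replicate 2 and 0.06 in replicate 3, with interquartile ranges of 0.06 to 0.1, -0.16 to -0.12 and 0.04 to 0.08. In day 0 replicate 2 the interquartile range was -0.13 to -0.04 for the 220 abundant gene models not called and -0.09 to 0 for the 172 that rose. In day 0 replicate 3 the median was 0.08 for those not called and 0.04 for those that rose, so the shift there was shared. In day 0 replicate 1 it was 0.01 and 0.

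**Figure D4:**
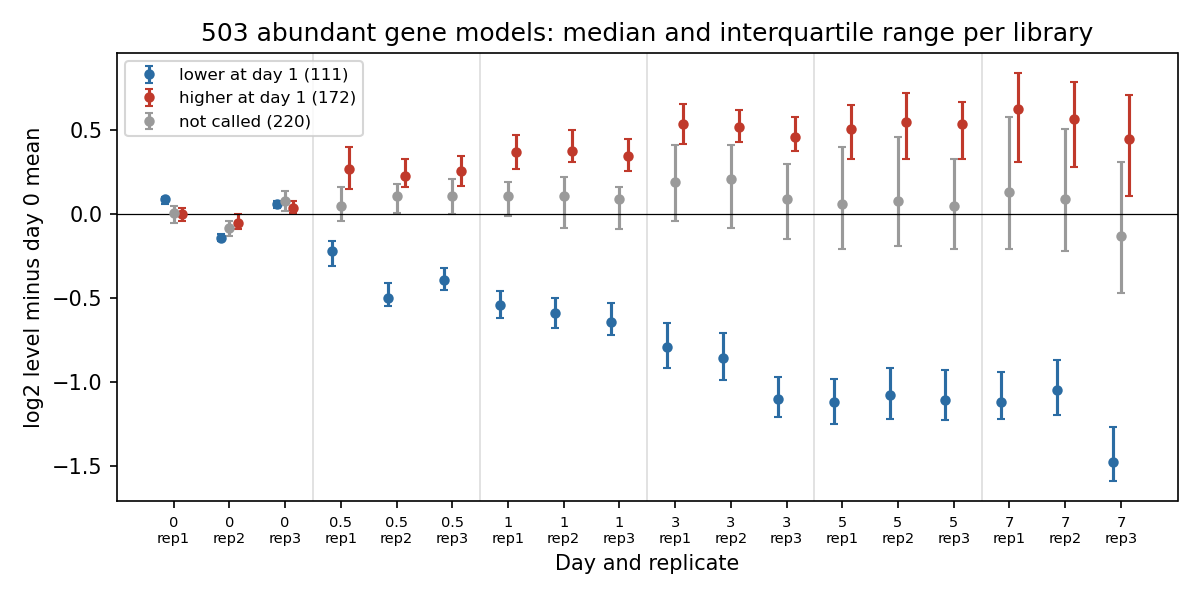
For 503 gene models of at least 300 CPM, points give the median log2 level relative to the day 0 mean in each of 18 libraries, and whiskers the interquartile range over gene models, for those that fell (blue, 111), rose (red, 172) or were not called (grey, 220) at day 1. Blue medians lie between -0.64 and -0.54 in the day 1 libraries, below those of day 0 in every case; the sets were chosen by this contrast.

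The 100 and the 500 most abundant gene models at day 0 were called more often than the 20.0% of all gene models tested. Small changes are easier to detect at such levels. Of the 10 most abundant gene models at day 0, 1 fell and 1 rose, with log2 changes between -0.41 and 0.26. Of the 100 most abundant, 48 were called, of which 29 fell and 19 rose, with log2 changes from -2.88 to 0.71. Of the 500 most abundant, 284 were called, with 142 falls and 142 rises.

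The called gene models held a sizeable part of the counts. The 2193 gene models that fell held 25.1 ± 0.6% of the counts in day 0 and 17 ± 0.4% in day 1 libraries (SD, n = 3 each). The 1229 that rose held 17.4 ± 0.26% in day 0 and 23.8 ± 0.42% in day 1 libraries (SD, n = 3 each). Those not called held 57.3 ± 0.44% and 59.1 ± 0.15% (SD, n = 3 each). Shares of a library sum to a fixed total, so a loss in one set appears as a gain in others and gives no amount of RNA. The gene models were chosen by the same libraries, and the shares carry no test. The loss of 8.06 percentage points was spread unevenly, since 10 gene models made up 26.1% of it and 100 made up 64.4%. The gain of 6.32 points was 16.6% from 10 gene models and 58.2% from 100. The 689 falls of at least 2-fold made up 19.8% of the loss and the 54 rises of at least 2-fold 5.2% of the gain, so most of the shift in shares came from changes below 2-fold.

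The same sets had intermediate shares at day 0.5, with 20 ± 0.59% for the falls and 20.8 ± 0.38% for the rises (SD, n = 3 each). After day 1 their shares moved less, which is partly set by choosing the sets by their change from day 0 to day 1. The falls held 15.3 ± 0.15% at day 3 and 13.9 ± 0.86% at day 7, and the rises 25 ± 0.2% and 25.5 ± 0.4% (SD, n = 3 each).

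The later steps between days 3 and 5 and between days 5 and 7 use neither day 0 nor day 1 libraries and so give a reading of the day 1 sets from other samples, apart from the shared filter and estimate of spread. Of the 1229 gene models that had risen at day 1, 73 (5.94%) fell from day 3 to day 5, against 99 of 13707 not called at day 1 (0.722%) and 1.10% of all tested. From day 5 to day 7, 95 of the rises fell (7.73%), against 167 of the 13707 (1.22%) and 1.62% of all tested. In this step 25 of the rises (2.03%) were called higher at day 7 than at day 5, against 138 of the 13707 (1.01%). From day 3 to day 5, 6 of the rises (0.488%) were called higher, against 10 of the 13707 (0.073%). Taken over all levels, later calls in both directions were thus more frequent among the rises than among gene models not called. Of the gene models that had fallen at day 1, 17 of 2193 (0.775%) fell in the first of these steps, close to the share of those not called, and 15 (0.684%) fell in the second. These last counts were unstable, with 8 to 11 in the first step without day 3 replicate 1 or 2 or any single day 5 library, and 3 to 9 in the second without day 7 replicate 3 or any single day 5 library. The median log2 change of the rises was 0 and -0.02 in the 2 steps, so the later falls concerned a minority of them.

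Rises were more abundant than other gene models, with a median level of 56 CPM against 7.4 CPM for those not called, and falls are easier to detect at high levels. The comparison was therefore also made within level classes, by the mean over 18 libraries. At 30 to 100 CPM, 28 of 428 rises fell from day 3 to day 5 (6.54%) and 32 of 1611 not called (1.99%). At 300 CPM or more it was 15 of 172 (8.72%) and 10 of 220 (4.55%). From day 5 to day 7, the shares at 30 to 100 CPM were 8.18% and 4.53%, and at 300 CPM or more they were 15.1% and 4.55%. At 10 to 30 CPM they were close in this step, at 1.44% and 1.15%. No test was made of these differences. None of the 111 abundant falls was called in either step, and their median log2 changes were -0.19 and -0.12. From day 1 to day 3, a step that shares the day 1 libraries, 29 of the 111 were called lower, with a median of -0.32. Against day 0 their median was -0.59 at day 1 and -1.21 at day 7.

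**Figure D5:**
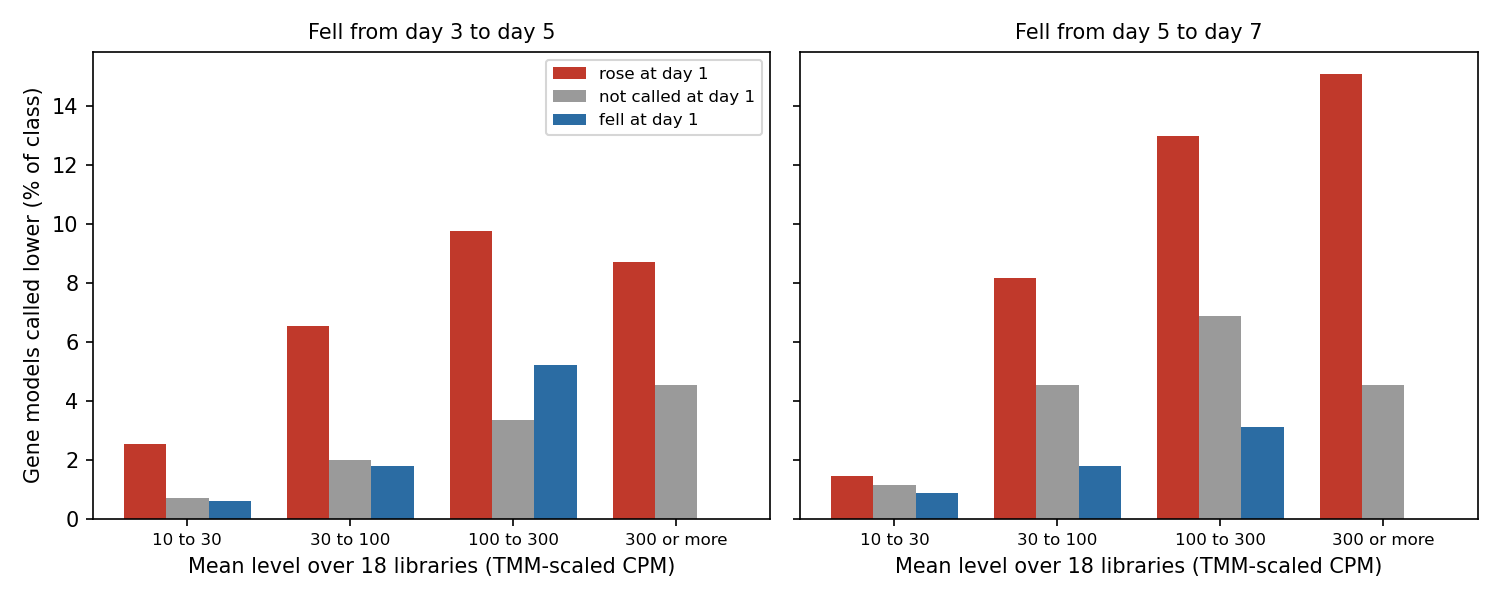
Bars give the percent of gene models called lower in the step between days 3 and 5 (left) and between days 5 and 7 (right), by level class (mean over 18 libraries, TMM-scaled CPM), for those that rose (red), were not called (grey) or fell (blue) at day 1. Red bars are the tallest in all 4 classes shown, in both steps, from 1.44% to 15.1%. Classes below 10 CPM are not shown. At 3 to 10 CPM, 2 of 115 rises fell in each step, and below 3 CPM none did.

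The tested gene models include 1992 sets of IDs that share a first number, with 5723 IDs in all. In 270 of these sets at least 2 IDs were called. All called members fell in 182 of the 270 sets and rose in 84, and 4 sets held calls in both directions, where 64.1% of all calls were falls. Members of a set may divide the same reads, so their calls are not independent. Calls were made for 17.6% of the IDs in such sets and for 21.2% of the 11406 IDs that stood alone.

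The 3 libraries of each day rarely overlapped in called gene models: 2155 of the 2193 falls (98.3%) and 1190 of the 1229 rises (96.8%) had no overlap. Over all gene models tested, 20.2% were without overlap and lower at day 1 and 16.9% without overlap and higher, which includes 1306 lower and 1699 higher gene models that did not pass the test.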

How the data were processed

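Messenger RNA 3' ends of whole animals were sequenced with Lasy-Seq, per the labels' protocols. The authors deposited estimated counts per gene model, not normalized, and a table with each library's total count. Salmon, BWA 0.7.17-r1188 and fastp 0.21.0 appear in the submitters' processing notes, and the sources used here state no gene model set or reference. The 92 ERCC control rows, with 324 to 487 counts per library at days 0 and 1, were left out, and 38 values that were not whole were rounded.

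Low counts were filtered by group (edgeR default, minimum count 10 and total 15). TMM (trimmed mean of M values) set the scaling between libraries. The edgeR 4.0.16 quasi-likelihood test (R 4.3.3) was fitted over all 18 libraries, two-sided, with Benjamini-Hochberg adjustment over 17129 gene models and a threshold of 0.05. Standard errors are the log2 change divided by the square root of F, which can be too small for falls to few counts. CPM are TMM-scaled. Replicates of a day differed beyond counting noise, at 3.56 to 4.87 times the chi-square expected. The 4 named gene models were the 2 largest rises and 2 largest falls at 20 CPM or more without overlap. Alternatives were DESeq2 1.42.0, other scalings, filters, thinning, a replicate block, fewer libraries and summed IDs. Gene models, sets and lists were chosen with earlier results of these data known. The gene lists and markers prepared could not be matched to IDs and gave no result.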

Additional observations from a re-analysis of the deposited data

Results flagged for a closer look

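The difference from day 0 of each of the 4 named gene models was not the same at day 1 and at a neighbouring sampling day, by the edgeR test of the step between those days over 17129 gene models. The 4 were picked as the largest changes at day 1. These steps share the day 1 libraries with the comparison in the report. DjGI016614-001 had its high level at days 0.5 and 1 and then had a log2 change of -0.7 ± 0.14 between days 1 and 3 (SE; edgeR adjusted p = 0.00265), with 16.2, 18.4 and 17 CPM at day 3 all below the lowest day 1 library at 25 CPM. DjGI013388-001 changed by -0.9 ± 0.16 in the same step (SE; edgeR adjusted p = 0.000944), to 127 ± 13.6 CPM (SD, n = 3). It then turned up again from day 5 to day 7, by 0.67 ± 0.16 (SE; edgeR adjusted p = 0.0246), from 118 ± 28.4 to 186 ± 9.37 CPM (SD, n = 3 each). DjGI005364-001 changed by -2.13 ± 0.35 from day 0.5 to day 1 (SE; edgeR adjusted p = 0.000463), lower in 3 of 3 libraries, and by 0 ± 0.45 from day 1 to day 3 (SE; edgeR adjusted p = 0.999). DjGI012618-001 had a log2 change of -1.15 ± 0.27 between days 0.5 and 1 (SE; edgeR adjusted p = 0.0261), lower in 3 of 3 libraries, and by -0.78 ± 0.35 from day 1 to day 3 (SE; edgeR adjusted p = 0.268).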

How the results depend on the processing

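The 4 named gene models kept their direction and stayed past the threshold in all 76 values computed under other settings. The number of calls was 3422, and it was 2094 with ERCC scaling and 2232 (1431 falls, 801 rises) with libraries thinned to 4679195 counts. The 1229 rises became 1910 with upper-quartile scaling and 602 with ERCC scaling, which rests on 324 to 487 control reads per library at days 0 and 1. Rises numbered 755 without day 0 replicate 1, 810 without day 0 replicate 2 and 717 without day 1 replicate 2. Leaving out single libraries gave 2463 to 2910 calls, 1708 to 2038 falls, 717 to 915 rises, 600 to 706 falls of at least 2-fold and 47 to 60 rises of at least 2-fold. No call shared with an alternative changed sign, and DESeq2 called 3206 of the 3422. The replicate block gave 3415 calls over 18 libraries. Same-numbered libraries of days 0 and 1 correlated at 0.008, 0.017 and 0.035 in their deviations, so the numbers were not taken to pair them. With only the 6 libraries there were 4137 calls, and 3984 with the block. The level classes and later falls were examined under other settings chosen after seeing the data. With levels from day 0 alone, 74.7%, 49.8% and 50.4% of the calls were falls below 30 CPM, at 30 to 300 CPM and above, against 80.5%, 37% and 39.2%. The share of day 1 rises that fell later ranged from 4.39% to 11.5% (day 3 to day 5) and 5.37% to 11% (day 5 to day 7). It was above that of gene models not called in 34 of 34 values, the main ones included. Under other scalings and without a day 0 or day 1 library, only the day 1 sets were redefined. The later falls then stayed those of the main fit, so these values are not independent of the main result. Without a day 3, day 5 or day 7 library, the day 1 sets were kept and the steps refitted. In the first step the share was 11.5% for rises called with ERCC scaling and 10.2% for those called without day 1 replicate 2. Where counts moved, the cause was not tested.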
